A study of Mus musculus with 6 samples.

Results

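The genes of amyloid precursor processing and tau were examined in the cerebral cortex of male mice of the senescence-accelerated strain SAMP8 and the senescence-resistant strain SAMR1. The mice were 16 weeks old when the experiment began, and the cortex was taken after the dosing and behavioral tests described below. The members are 9 genes chosen by name for their function: *App*, *Aplp1*, *Aplp2*, *Adam10*, *Bace1*, *Psen2*, *Ncstn*, *Ide* and *Mapt*. All probe sets whose gene symbol entry holds a member were taken, which gave 32 of the 45077 probe sets on the array and 9 of the 22527 gene symbols. Each of the 3 groups had 2 mice. SAMR1 and SAMP8 control received water by mouth, and STEE-fed SAMP8 received the sugarcane top ethanolic extract (STEE) at 20 mg/kg, in all cases for 30 days and then through 8 days of behavioral tests. All mice therefore shared the oral dosing and the behavioral tests. According to the paper, bromodeoxyuridine, a label of dividing cells, was also added to the drinking water of all animals during the dosing period. SAMR1 and SAMP8 are separate strains, neither of which carries a transgene.

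The amyloid precursor protein spans the neuronal membrane and is cut by proteases called secretases. A cut by the α-secretase ADAM10 falls within the amyloid-β stretch, whereas a cut by the β-secretase BACE1 followed by the γ-secretase complex releases the amyloid-β peptide, which insulin-degrading enzyme can break down. Tau, the product of *Mapt*, binds microtubules in axons, and its phosphorylated form collects in the tangles of Alzheimer's disease. Expression of the genes was measured here at the level of RNA, and protein cleavage, amyloid-β and tau phosphorylation were not measured on these arrays.

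Every level below is the authors' mean log2 signal of a group, given to 2 decimals, and runs of 3 levels follow the order SAMR1, SAMP8 control, STEE-fed SAMP8. Every difference is between 2 such means, so that rounding alone can move it by 0.01. No value of a single mouse was used. The differences consequently carry no error and no test, and whether they exceed the spread between mice cannot be told from them. The arrays read a transcript through sets of short probes that bind with unequal strength, so the levels of different probe sets are not compared. Differences of at least 1.2-fold, or 0.26 on the log2 scale, were counted and set beside the share of all probe sets past the same limit. Of the 32 member probe sets, 26 had a mean signal at or above the median of all probe sets (4.15), and the other 6 were read as weak signals.

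**Figure D1:**
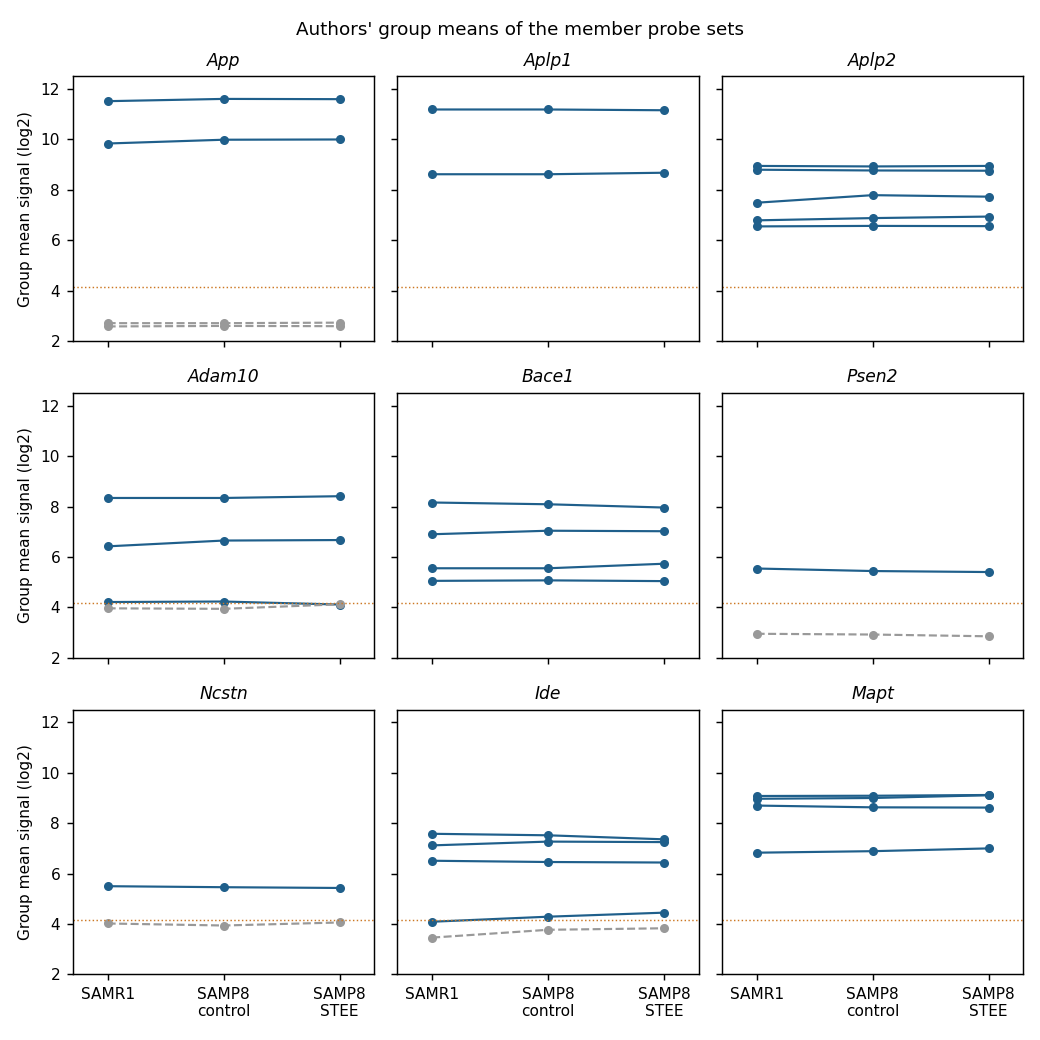
The authors' group mean signal (log2, vertical axis) is plotted for SAMR1, SAMP8 control and STEE-fed SAMP8, with 1 panel per gene and 1 line per probe set. Gray dashed lines are the 6 probe sets under the median signal of all probe sets (4.15, dotted line), and the lines are close to level in all 9 panels.

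The tissue showed the markers of cortical neurons, with *Slc17a7*, the vesicular glutamate transporter of cortical excitatory neurons, at 7.05, 7.10 and 7.19. Markers of other regions and cell types, however, differed between the strains. In SAMP8 control all 6 markers of striatal neurons lay above SAMR1 at their brightest probe sets, by 0.32 to 0.89. The mean log2 level over the list was 7.15, 7.76 and 7.83. Over all of their probe sets, *Rgs9* ranged from -0.07 to 0.45 and *Adora2a* from 0.08 to 0.40. The 6 oligodendrocyte markers were all lower, with differences of -0.63 to -0.07 and a mean level of 9.79, 9.48 and 9.47. Of the 5 choroid plexus markers, *Ttr* was at 10.20, 8.24 and 9.33, whereas the other 4 differed between the strains by -0.32 to 0.02. The list had a median difference of -0.18 between the strains and 0.01 with STEE. However, *Kl*, *Folr1* and *Otx2* had weak signals, under the median of all probe sets. The probe sets of *Clic6* differed in the same direction as *Ttr*, by -0.44 to -0.18 between the strains and by 0.01 to 0.27 with STEE. The 3 hippocampal markers differed by -0.56 to -0.15, but *Prox1* and *Dsp* had weak signals, under the median of all probe sets. Another *Dsp* probe set differed by 0.03, and the *Prox1* probe sets ranged from -0.76 to -0.04. At their brightest probe sets the 5 neuron markers were higher by 0.01 to 0.24, with a mean level of 10.04, 10.14 and 10.16. This depended on the probe set: others differed by as much as -0.57 for *Camk2a*, -0.15 for *Rbfox3*, -0.15 for *Snap25* and 0.65 for *Gad1*. The lists for astrocytes, microglia, endothelium and blood had median differences of -0.10, -0.02, -0.09 and 0.01. Of the astrocyte markers, *Gfap* was higher between the strains, by 0.21, and 4 were lower, although the *Gja1* probe sets ranged from -0.20 to 0.61. With STEE *Gfap* differed by -0.22. The 3 endothelial markers were lower between the strains, *Cldn5* by -0.28, and higher with STEE, by 0.07 to 0.15, but the *Flt1* probe sets ranged from -0.30 to 0.11 and from -0.25 to 0.14. The part of these shifts in the differences of the members was not tested, and in whole tissue fewer cells of a type and less RNA per cell cannot be told apart.

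Between SAMP8 control and SAMR1 the members differed little. The median difference of the 32 probe sets was 0.005 and the median size of a difference was 0.045, against 0.00 and 0.07 for all probe sets. Of the 32, 16 were higher, 11 were lower and 5 were equal to 2 decimals, and 25 of the differences were no larger than 0.1. At least 1.2-fold higher in SAMP8 control were 2 of 32, 1 probe set of *Aplp2* and 1 of *Ide*, compared with 3.68% of all probe sets. None was 1.2-fold lower, compared with 3.43% of all probe sets. With so few probe sets, neither count is read as a result about the members. At a limit of 1.1-fold, 7 were higher and 0 lower, against 12.4% and 13.5% of all probe sets.

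STEE-fed SAMP8 and SAMP8 control differed about as little. The 32 differences ranged from -0.16 to 0.18, with a median of -0.01 and a median size of 0.035, against 0.00 and 0.06 for all probe sets. No member probe set was 1.2-fold higher or lower with STEE, compared with 1.03% and 0.976% of all probe sets. This count, too, is not set apart from the background. At 1.1-fold, 3 were higher (*Adam10*, *Bace1* and *Ide*) and 1 was lower (*Ide*), against 8.25% and 8.0% of all probe sets.

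**Figure D2:**
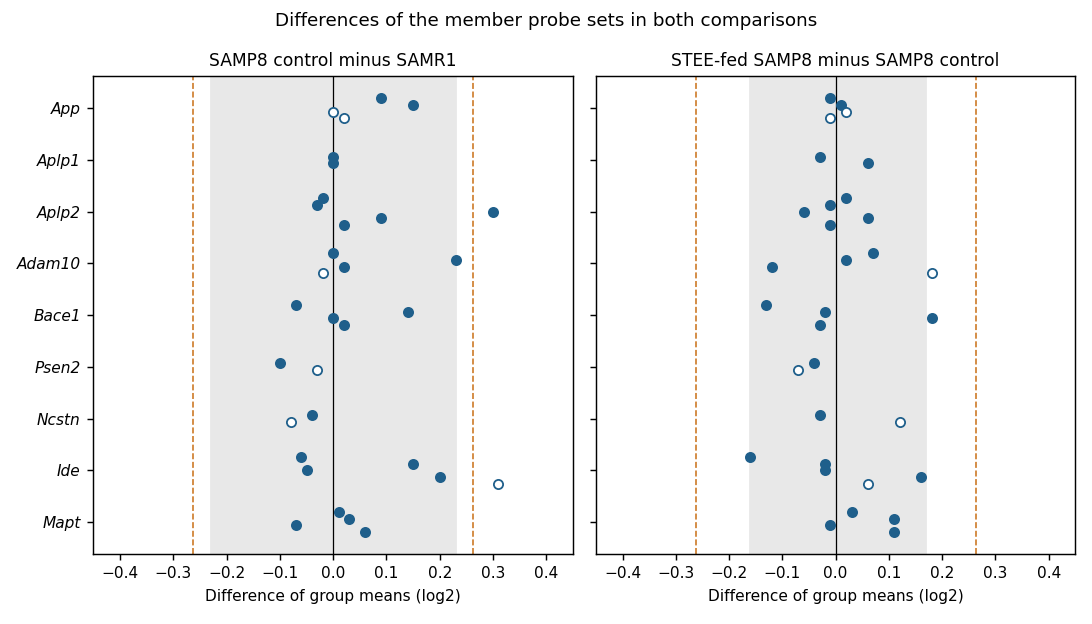
Each point is the difference between 2 group means (log2, horizontal axis) of 1 probe set, by gene, for SAMP8 control minus SAMR1 (left) and STEE-fed SAMP8 minus SAMP8 control (right). Open points have a signal under the median of all probe sets, the gray band holds the 5th to 95th percentile of all 45077 probe sets (-0.23 to 0.23 and -0.16 to 0.17), and dashed lines mark 1.2-fold. Only 1 *Aplp2* and 1 *Ide* probe set lie beyond a dashed line, both on the left.

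*App* encodes the amyloid precursor protein itself. The brightest of its 4 probe sets, 1427442_PM_a_at, was at 11.52, 11.61 and 11.60. The next, 1420621_PM_a_at, was at 9.84, 9.99 and 10.0. Both probe sets thus lay slightly above SAMR1 in SAMP8 control, by 0.09 and 0.15, and STEE-fed SAMP8 was within 0.01 of SAMP8 control. A difference of 0.15 is 1.11-fold, and 76.8% of all probe sets had a smaller one. The remaining probe sets, 1438374_PM_x_at and 1438373_PM_at, gave 2.58 to 2.73 in all groups, under the lower quartile of the array (3.18).

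*Aplp1* and *Aplp2* encode the amyloid precursor-like proteins, relatives of APP that secretases also cut and that lack the amyloid-β stretch. *Aplp1* had the same mean in both strains at both of its probe sets, 11.19 at 1435857_PM_s_at and 8.62 at 1416134_PM_at. In STEE-fed SAMP8 these were 11.16 and 8.68, so that the probe sets differed in opposite directions, by -0.03 and 0.06. No other member was at equal levels in the strains across all of its probe sets.

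Of the 5 *Aplp2* probe sets, 1 stood apart. At 1432344_PM_a_at the mean was 7.49, 7.79 and 7.73, a difference of 0.30 between the strains, or 1.23-fold, which is larger than that of 94.7% of all probe sets and of 91.1% of those at or above the median signal. The other 4 differed between the strains by -0.03 to 0.09. The brightest, 1423739_PM_x_at, was at 8.95, 8.93 and 8.95, and 1421887_PM_a_at was at 8.80, 8.77 and 8.76. The strain difference of *Aplp2* was therefore seen at 1 of 5 probe sets, and with STEE all 5 were within 0.06 of SAMP8 control.

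*Adam10* encodes the main α-secretase of neurons. Its brightest probe set, 1428103_PM_at, was at 8.34, 8.34 and 8.41. At 1450105_PM_at the mean was 6.42, 6.65 and 6.67, higher in both SAMP8 groups than in SAMR1, by 0.23 (1.17-fold) in SAMP8 control. The weak probe set 1450104_PM_at, which was built from the same design cluster (group of source sequences) as 1450105_PM_at, showed no such step, with 3.96, 3.94 and 4.12. It gave the largest difference with STEE among the *Adam10* probe sets, 0.18, while 1460083_PM_at differed by -0.12 in the other direction, from 4.23 to 4.11. The 4 probe sets of *Adam10* thus gave no common direction in either comparison.

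*Bace1* encodes the β-secretase, whose cut is the first step towards amyloid-β. The mean at its brightest probe set, 1455826_PM_a_at, was 8.16, 8.09 and 7.96, with a strain difference of -0.07 and a further -0.13 with STEE. In contrast, 1450384_PM_at was at 5.55 in both water groups and at 5.73 with STEE, 0.18 higher, which is more than 91.7% of all probe sets showed in size. At 1421824_PM_at the means were 6.90, 7.04 and 7.02, and at 1421825_PM_at they were 5.05, 5.07 and 5.04. Averaged over the 4 probe sets, which all come from the same design cluster, *Bace1* differed by 0.02 between the strains and by 0.00 with STEE.

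*Psen2* and *Ncstn* encode presenilin-2, a catalytic subunit of γ-secretase, and nicastrin, the subunit that takes part in substrate binding. *Psen2* at 1425869_PM_a_at was at 5.54, 5.44 and 5.40. Its weak probe set, 1431542_PM_at, was at 2.95, 2.92 and 2.85. *Psen2* was the only member whose probe sets were all lower in SAMP8 control and all lower again in STEE-fed SAMP8, although no step was larger than 0.10 and the second probe set lies under the lower quartile of the array. *Ncstn* at 1418570_PM_at was at 5.50, 5.46 and 5.43. The weak *Ncstn* probe set 1444532_PM_at gave 4.02, 3.94 and 4.06, lower in SAMP8 control like the first but 0.12 higher with STEE.

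*Ide* encodes insulin-degrading enzyme, a zinc protease that cleaves insulin and amyloid-β. It had 5 probe sets, and they fell into groups by design cluster. The 3 from one cluster all had a higher mean in SAMP8 control. Among these, 1423120_PM_at was at 7.12, 7.27 and 7.25, and 1423121_PM_at was at 4.09, 4.29 and 4.45. The weakest, 1453988_PM_a_at, was at 3.46, 3.77 and 3.83, and its strain difference of 0.31 (1.24-fold) was the largest of any member probe set, larger than that of 95.1% of all probe sets. In the clusters with 1 probe set each, 1435140_PM_at was at 7.58, 7.52 and 7.36 and 1441860_PM_x_at at 6.51, 6.46 and 6.44. Their strain differences were -0.06 and -0.05. With STEE the brightest, 1435140_PM_at, differed by -0.16 and 1423121_PM_at by 0.16, each larger in size than 88.3% of all probe sets. The direction of *Ide* in both comparisons thus depended on the probe set, and the grouping by cluster was noticed after the values were seen.

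*Mapt*, the tau gene, was read by 4 probe sets at or above the median signal. The brightest, 1455028_PM_at, was at 9.08, 9.09 and 9.12, and 1424719_PM_a_at was at 8.97, 9.0 and 9.11. At 1424718_PM_at the means were 8.70, 8.63 and 8.62, and at 1417885_PM_at they were 6.83, 6.89 and 7.00. Between the strains the 4 differed by -0.07 to 0.06. With STEE 3 of the 4 were higher, by 0.03, 0.11 and 0.11, and 1 differed by -0.01, for a mean over the probe sets of 0.06. A difference of 0.11 is 1.08-fold, and 73.8% of all probe sets differed by less.

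**Figure D3:**
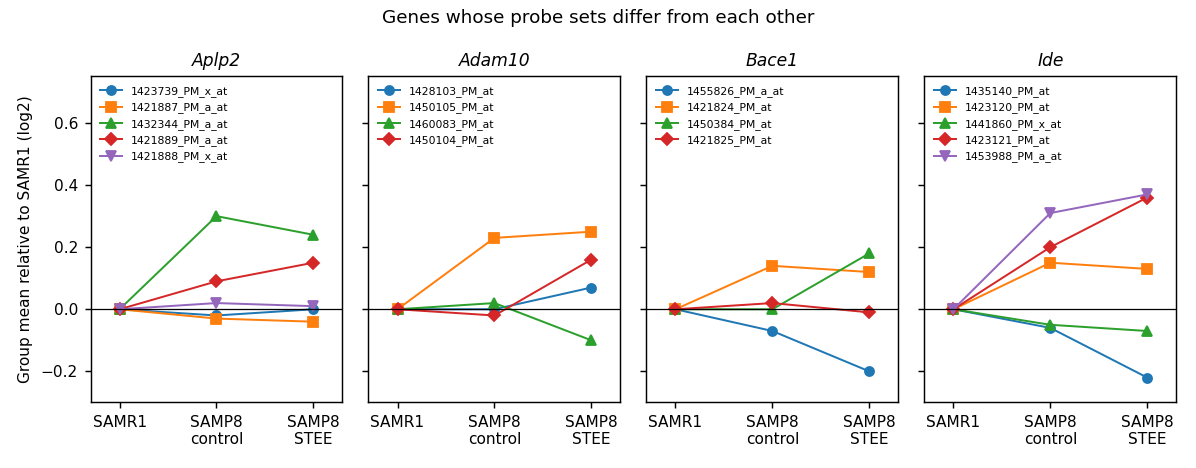
For 4 genes whose probe sets differ from each other, the authors' group mean of each probe set is plotted relative to SAMR1 (log2, vertical axis) across SAMR1, SAMP8 control and STEE-fed SAMP8, with 1 marker shape per probe set. The *Aplp2* probe set 1432344_PM_a_at and 3 *Ide* probe sets lie above 0.1 in both SAMP8 groups, as do 1 of *Adam10* and 1 of *Bace1*, while each of the 4 genes also has a probe set below 0 in STEE-fed SAMP8.

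How far the probe sets of a gene lay apart gives a scale for these differences. Among the 7 members with at least 2 probe sets at or above the median signal, the gap between the highest and the lowest difference had a median of 0.21 for SAMP8 control minus SAMR1, from 0.00 for *Aplp1* to 0.33 for *Aplp2*. For STEE-fed SAMP8 minus SAMP8 control it had a median of 0.12, from 0.02 for *App* to 0.32 for *Ide*. Over the 4960 single-symbol genes with at least 2 such probe sets the median gap was 0.15 and 0.10. A gap of this kind tends to widen with the number of probe sets. The members had up to 5 such probe sets (*Aplp2*), and the medians were not matched for that number. Averaged over all of its probe sets, weak ones included, each of the 9 genes differed by -0.07 (*Psen2*) to 0.11 (*Ide*) between the strains and by -0.06 (*Psen2*) to 0.06 (*Mapt*) with STEE.

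STEE-fed SAMP8 and SAMR1 differ in both strain and extract, and their comparison shares a group with each of the others. At least 1.2-fold higher in STEE-fed SAMP8 were 2 of the 32 probe sets, against 4.60% of all, and 0 were 1.2-fold lower, against 3.25%. Both belonged to *Ide*: 1423121_PM_at was 0.36 and 1453988_PM_a_at 0.37 above SAMR1. *Aplp2* at 1432344_PM_a_at was 0.24 and *Adam10* at 1450105_PM_at was 0.25 above SAMR1. The lowest differences were -0.22 for *Ide* at 1435140_PM_at and -0.20 for *Bace1* at 1455826_PM_a_at.

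The other genes of the pathway were read from 5 lists of 51 genes in all, each gene by its brightest probe set. Between the strains the median difference of the 51 was 0.06, with 32 higher and 18 lower in SAMP8 control against 47.1% and 49.1% of all genes, and 2 genes were at least 1.2-fold higher in SAMP8 control and 2 at least 1.2-fold lower, compared with 3.68% and 3.19% of all genes read in the same way. With STEE the median was 0.01, 0 genes were 1.2-fold higher and 1 was 1.2-fold lower, against 1.1% and 0.923%. Read in this way, 0 of the 9 members passed 1.2-fold in either direction in these comparisons, and their median difference was -0.02 between the strains and -0.03 with STEE.

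Among 8 further secretase genes and their partners, 7 were higher and 1 was lower in SAMP8 control, against 47.1% and 49.1% of all genes, with a median difference of 0.10. *Aph1a*, a scaffold subunit of γ-secretase, was the one that was lower: its mean was 7.17, 6.84 and 6.91, a difference of -0.33. All 3 of its probe sets were lower in SAMP8 control, with differences of -0.42 to -0.07. *Aph1c*, a paralog of it read by a probe set shared with *Aph1b*, was at 4.48, 4.70 and 4.74, a difference of 0.22 in the other direction. With STEE the brightest probe sets of the 8 differed by -0.08 to 0.07, but another *Aph1a* probe set differed by 0.28.

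Of 6 genes of amyloid-β degradation and clearance, 1 was higher, 4 were lower and 1 was equal in SAMP8 control. Of all genes, 47.1% were higher and 49.1% lower. The higher gene, *Ece1*, differed by 0.01, no more than rounding can give, and by as much as 0.11 at another probe set. Lower were *Ece2*, *Lrp1* (-0.07), *Clu* (-0.05) and *Mme* (-0.03, a weak signal), and another *Clu* probe set differed by 0.03. *Ece2*, an endothelin-converting enzyme able to degrade amyloid-β, was at 4.97, 4.61 and 4.70, with a strain difference of -0.36, and its second probe set differed by -0.08. *Apoe*, the apolipoprotein that astrocytes secrete, was at 10.11 in both water groups and 10.01 with STEE. Among 11 adaptors, sorting receptors and processing modulators of APP none reached 1.2-fold in either comparison at its brightest probe set. A less bright probe set of *Rtn3* differed by 0.34 between the strains, and one of *Bin1* by -0.27 with STEE. *Apbb1*, an adaptor that binds the tail of APP, went from 8.93 to 8.76 between the strains and stood at 8.83 with STEE, and *Mapk8ip1*, a kinase scaffold that also binds APP, was at 7.83, 7.66 and 7.80.

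In the list of 18 tau kinases and phosphatase genes, 14 were higher and 4 lower in SAMP8 control, against 47.1% and 49.1% of all genes, with a median difference of 0.09, and 2 were at least 1.2-fold higher, against 3.68% of all genes. *Ppp2cb*, a catalytic subunit of the tau phosphatase PP2A, was at 7.52, 7.80 and 7.82, a strain difference of 0.28, but its other probe set differed by -0.07. Among 8 other microtubule-associated proteins and tubulin genes, *Dcx*, a marker of immature neurons, was at 6.71, 6.84 and 6.55, and its difference of -0.29 with STEE was the only one past 1.2-fold in that comparison among the brightest probe sets of the 5 lists. Less bright probe sets of *Aph1a* (0.28), *Ppp2ca* (0.29) and *Bin1* (-0.27) also passed 1.2-fold with STEE. Between the strains, less bright probe sets of *Cdk5r1* (0.56), *Dyrk1a* (0.34), *Rtn3* (0.34), *Map1b* (0.29) and *Aph1a* (-0.42) passed it. These less bright probe sets are the extremes among the 132 probe sets of the 5 lists. Of all probe sets on the array, 3.68% were 1.2-fold higher and 3.43% lower between the strains, and 1.03% and 0.976% with STEE. The 4 *Dcx* probe sets differed by -0.29 to 0.03 with STEE. *Map6*, which stabilises microtubules, was at 6.74, 6.90 and 6.92.

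**Figure D4:**
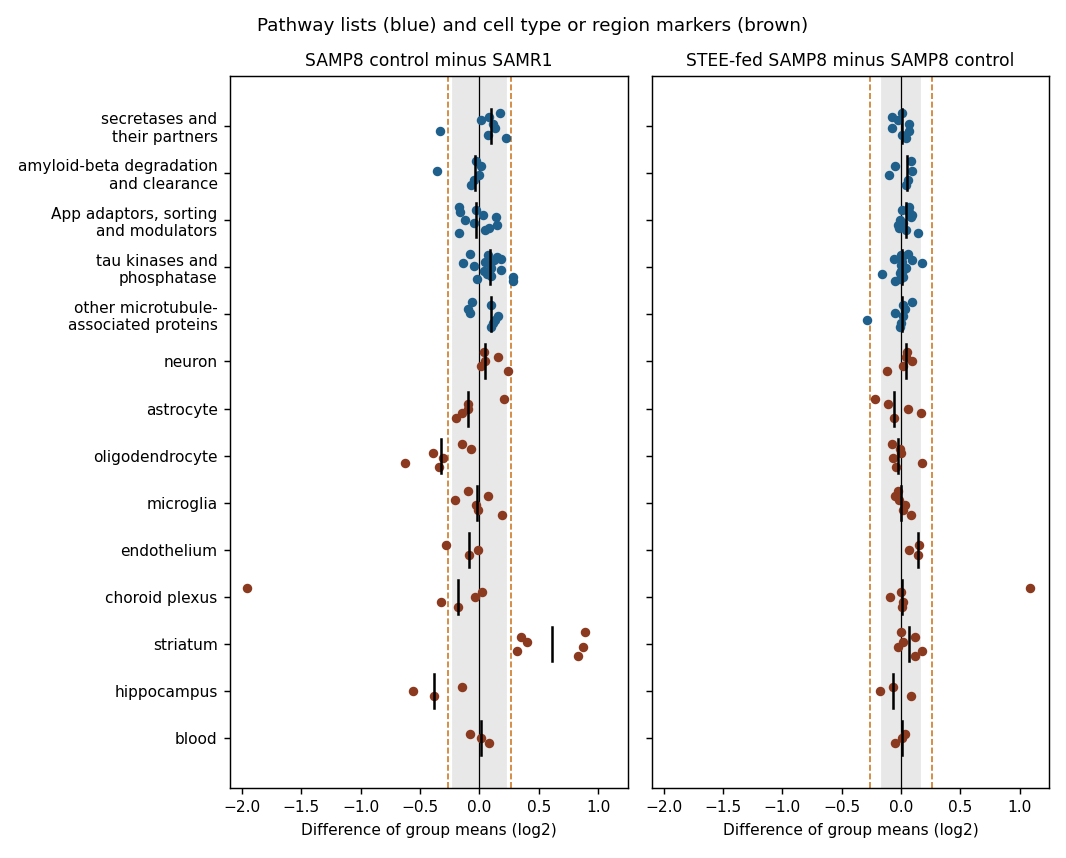
Each point is a gene, read from its brightest probe set, at its difference of group means (log2, horizontal axis) for SAMP8 control minus SAMR1 (left) and STEE-fed SAMP8 minus SAMP8 control (right), by list. Black bars are list medians, gray bands hold the 5th to 95th percentile of all 22527 genes and dashed lines mark 1.2-fold. The 5 pathway lists (blue) stay mostly within the bands, while all 6 striatal markers lie to the right and 4 of 6 oligodendrocyte markers to the left of the dashed lines between the strains.

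The pattern of the *Ide* probe set with the largest difference, 1453988_PM_a_at, a weak signal, was also seen at probe sets of other genes. Likeness was measured as the distance over both log2 differences, across the 3 group means, among 20060 probe sets of other genes with a signal at or above the median. A distance of 0.00 was found for *Chst15*, *Mettl23* and *Mettl21a*, and 193 of the 20060 probe sets lay within 0.05.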

How the data were processed

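Cortical RNA of 6 mice was read on Affymetrix perfect-match mouse genome array strips, and the paper does not say how the samples were spread over strips. The authors summarised the signals with RMA in Expression Console and averaged them in Transcriptome Analysis Console. They deposited 2 comparison tables with log2 group means (bi-weight averages, 2 decimals) for 45077 probe sets. Both tables gave the same SAMP8 control means. The tables' fold changes, ANOVA p-values and FDR p-values are the authors' own comparisons and were not used. The annotation release and a genome build are not given in the sources used here.

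Differences of group means were computed with Python 3.11.15, pandas 2.3.3 and numpy 2.4.6. A gene was read from its probe set with the highest mean signal unless stated. The counting was tested on simulated data. No test was run, because means without values per mouse carry no spread. Named genes are all members, and in each list those past 1.2-fold and the 2 with the largest difference, and the 3 genes nearest to the member probe set with the largest difference. The values of 1 gene that this rule names are not reported here. The members and lists were chosen with earlier results of these data known. Comparing STEE-fed SAMP8 with SAMR1 was added after the values were seen.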

Additional observations from a re-analysis of the deposited data

How the results depend on the processing

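The count of member probe sets past the limit between the strains, 2, moved to 7 at 1.1-fold, to 0 at 1.5-fold, to 1 among probe sets at or above the median signal, where the *Ide* probe set drops out, and to 1 on the linear scale with a pseudocount of 16. With STEE the count of 0 moved to 4 at 1.1-fold. Centring each group on its median and leaving out probe sets ending in _s_at or _x_at changed neither count, although the latter turned the sign of the STEE difference for *Aplp1* and *Aplp2*. With the mean over all probe sets in place of the brightest one, the sign of the strain difference turned for 3 of 9 genes (*Aplp2*, *Bace1* and *Ide*) and that of the STEE difference for 4 (*App*, *Aplp1*, *Ncstn* and *Ide*), none of them past 1.2-fold. With the median over probe sets it turned for 3 genes in each comparison. No paired analysis was possible because the tables hold group means, and for the same reason no analysis leaving out a mouse was run.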
